A study of Rattus norvegicus with 6 samples.

Results

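The BCL2 family genes that decide between survival and death of a cell at the mitochondrion were followed across the array measurements of the rat jejunum. The 10 members were the pro-survival genes Bcl2l1 and Mcl1, the BAX-like genes Bax, Bak1 and Bok, and the BH3-only genes Bcl2l11, Bid, Bad, Bbc3 and Bmf. A probe was taken as a member when the RefSeq accession in the scanner file belonged to one of these genes, which gave 15 probes for 10 of the 13899 genes that could be named on the array. Of these probes, 14 were bright enough to be tested.

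Gene expression was measured in the whole jejunum of male Sprague-Dawley rats, 6 weeks old, on 1-colour Agilent arrays, with 3 arrays per group. On each of 3 days the S3d group spent 2 h in a shaker set to 35 °C and 0.1 g, and the control group was not stressed. Both groups had been housed at 25 °C, and each sample was RNA pooled from 3 rats, so the spread between arrays is that between pools. Whether the 3 pools of a group share animals is not stated, and the p-values measure only the spread between these pools, which may in part be technical. The whole piece of intestine was extracted, and fewer cells of a type cannot be told apart from less RNA per cell.

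The BCL2 proteins share short BCL2 homology domains and meet at the outer membrane of the mitochondrion. BAX and BAK1 form the pores through which cytochrome c leaves, pro-survival proteins such as the products of Bcl2l1 (BCL-XL) and Mcl1 hold them and the BH3-only proteins in check, and the BH3-only proteins start the process in answer to different kinds of damage. In the small intestine this balance governs the death of crypt cells after injury and the loss of epithelial cells along the villus.

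The labels of the deposited files contradict each other, which bears on every sign given here. Each column of the deposited normalized table followed a scanner file that carries the other group's label and an equal replicate number, with a rank correlation across 41012 probes of at least 0.99995, and that of its own label with 0.941 to 0.948. No sample was reassigned. All values below are from the scanner files and are named by the labels of those files, and for 9 of the 10 members their direction is opposite to that in the deposited table. The study gives Bcl2l1, Bcl2l11, Bak1 and Bid in the direction of the table, and Bad in that of its brighter probe there. Its RT-PCR of other genes gives Atf4, Casp8 and Casp9 among those higher after stress, and Herpud1 and mTOR as lower. The study describes these changes as closely correlated with its array data, in which Herpud1 and mTOR were also lower. In the arrays Atf4, Casp8 and Casp9 were at -1.26, -0.49 and -0.17 by the labels of the scanner files and at 0.74, 0.48 and 0.28 by those of the table. Casp8 and Casp9 are named here for the RT-PCR and were chosen after their values were seen. Which of the labels are right cannot be told from the files. In addition, the 3 arrays of each group shared 1 slide that held no array of the other group. The 2 scans were 450 days apart, and slide and group cannot be told apart. The 75th percentile of the signal was 415 to 430.0 on the arrays labelled control and 1458 to 1558 on the arrays labelled S3d.

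Values are log2 signals relative to the 75th percentile of the same array, and a change is the mean of the arrays labelled S3d minus that of the arrays labelled control. A gene with more than 1 probe is represented by the brightest. All 10 members passed an adjusted p of 0.05 in limma, and 4 of these were higher in S3d and 6 were lower. Among all 31367 tested probes, 74.0% passed, 39.5% of all as higher and 34.5% as lower, so passing was common across the array and the count alone does not set the members apart. With single arrays left out 6 to 9 members passed, with 6 when control replicate 2 was left out, and the members that lost the call in at least 1 of these fits were Mcl1, Bad, Bbc3 and Bmf. A fold of at least 1.5 as well was reached by 7 of the 10 members, 3 higher and 4 lower, against 52.5% of all tested probes, 29.2% higher and 23.3% lower. For each of the 10 genes all values of one group lay above those of the other, which held for 78.9% of all tested probes. The median size of the change, without regard to sign, was 1.03 for the members and 0.65 for all tested probes. The median signed change was -0.22 for the members and 0.08 for all tested probes. The median change of all tested probes was 1.93 without scaling, -0.10 with each array centred on its median and -0.69 after normexp correction. Without scaling the brightest probe of all 10 members was higher on the arrays labelled S3d, so a fall of a brightest member probe is a fall relative to the 75th percentile of the array. The dimmer Bcl2l1 probe A_44_P548065 was lower also without scaling, at -0.69 (adjusted p = 0.000228). The study had selected Bcl2l1, Bcl2l11, Bak1, Bid and Bad on these same samples, so their changes are not independent evidence. The same holds for Bcl2, Bcl2l2, Bcl2l10, Bcl2l14, Bik, Atf4, Casp8 and Casp9, which are named in other passages.

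**Figure D1:**
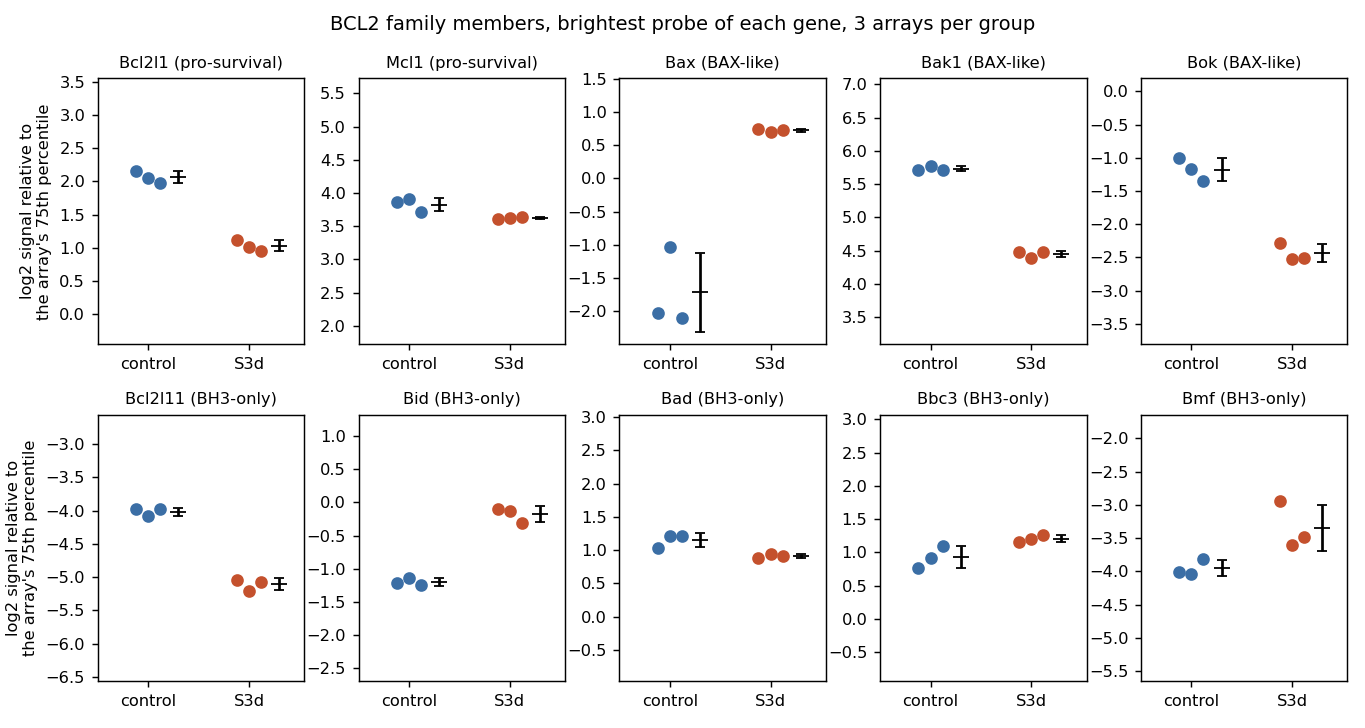
Log2 signal relative to the 75th percentile of the array (y axis) for the brightest probe of each member on the 3 arrays labelled control and the 3 labelled S3d. Points are arrays and bars are the mean ± SD. Each panel spans 4 log2 units; Bax stands out by its rise and by the 1 control array that lies above the other two, and Mcl1, Bad and Bbc3 by how close their groups lie.

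Of the pro-survival genes, Bcl2l1 was lower on the arrays labelled S3d by each of its 3 tested probes. Mcl1 was lower by both of its probes, but the brighter one turned its sign under quantile normalization. Bcl2l1 encodes BCL-XL, which holds BAX and BAK1 inactive, and a shorter splice form of it promotes death. Its brightest probe, A_44_P254238, read 2.16, 2.06 and 1.98 on the control arrays and 1.12, 1.02 and 0.96 on the S3d arrays. The groups did not overlap, and the change was -1.03 ± 0.08 (SE, n = 3 per group, adjusted p = 8.48e-05). The 2 further probes that could be tested fell more, by 1.61 ± 0.10 for A_42_P623909 (adjusted p = 4.01e-05) and by 2.54 ± 0.10 for A_44_P548065 (adjusted p = 1.35e-05). The 95% intervals of the 3 probes, from -1.23 to -0.84, from -1.85 to -1.36 and from -2.78 to -2.30, did not overlap one another. The brightest probe is assigned to a different transcript of the gene from the other two, and how much of each splice form was present was not tested. Probe A_43_P12577, printed in 10 spots, was not well above background on any array and gives no value.

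Mcl1, a short-lived pro-survival protein that binds BAK1 and BCL2L11, changed little by its brightest probe. A_44_P280965 read 3.86, 3.91 and 3.71 on the control arrays and 3.61, 3.62 and 3.64 on the S3d arrays. The change was -0.20 ± 0.07 (adjusted p = 0.0438), and 82.9% of tested probes changed by more. The call was lost in 5 of the 6 fits that left out 1 array, with adjusted p from 0.0846 to 0.131, and under quantile normalization the sign turned, to 0.15 (adjusted p = 0.105). The other probe, A_44_P101211, read 3.25, 3.43 and 3.19 on the control arrays and 2.27, 2.47 and 2.46 on the S3d arrays. It fell by 0.89 ± 0.10 (adjusted p = 0.000347), and its value under quantile normalization was -0.66 (adjusted p = 0.00176). The direction of Mcl1 therefore depends on the probe and the scaling, which was not so for Bcl2l1 under quantile normalization.

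The BAX-like genes moved in opposite directions. Bax, which is held in the cytosol until it is activated, gave the largest change among the brightest probes of the 10 members. Its single probe, A_43_P11800, read -2.02, -1.03 and -2.10 on the control arrays and 0.75, 0.70 and 0.72 on the S3d arrays. The lowest S3d array lay above the highest control array, and the rise was 2.44 ± 0.29 (adjusted p = 0.000473), a fold of 5.42 that 4.81% of tested probes exceeded in size. The second control array stood apart from the other 2 controls. Its 8 spots of the probe without an outlier flag gave processed signals of 203 to 216, with a coefficient of variation of 2.38%, against 97.3 to 105 and 93.6 to 106 on the other control arrays and 2250.2 to 2765 on the S3d arrays. The difference between the control arrays was thus shared by all 8 spots. Without that array the rise was 2.78.

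Bak1 and Bok were both lower on the arrays labelled S3d. Bak1 sits in the outer membrane and forms pores as BAX does. Probe A_43_P12940 read 5.71, 5.77 and 5.72 on the control arrays and 4.48, 4.39 and 4.47 on the S3d arrays, without overlap. The fall was 1.28 ± 0.06 on the log2 scale (adjusted p = 1.99e-05), and the value under quantile normalization was -0.79 (adjusted p = 8.45e-05). Bok, a relative of both that is less well understood, read -1.01, -1.17 and -1.35 on the control arrays and -2.28, -2.52 and -2.50 on the S3d arrays for probe A_44_P125564. It fell by 1.26 ± 0.12 (adjusted p = 0.000173), and after normexp background correction it was at -1.46 (adjusted p = 0.0464).

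The brightness of a probe moved with its change. Tested probes were sorted by mean signal into 10 bins of 3136 or 3137. In the brightest bin, which held the Bak1 probe and the brighter Mcl1 probe, the median change was -0.49. In the dimmest bin it was 1.28, and no member probe lay there. The next 2 bins, with medians of 0.39 and 0.32, held Bcl2l11 and Bmf. Bax and Bid lay in a bin with a median of -0.02. Under quantile normalization the median of the brightest bin was -0.0028. Which part of the changes of Bak1, Mcl1 and Bmf this makes up was not tested.

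**Figure D2:**
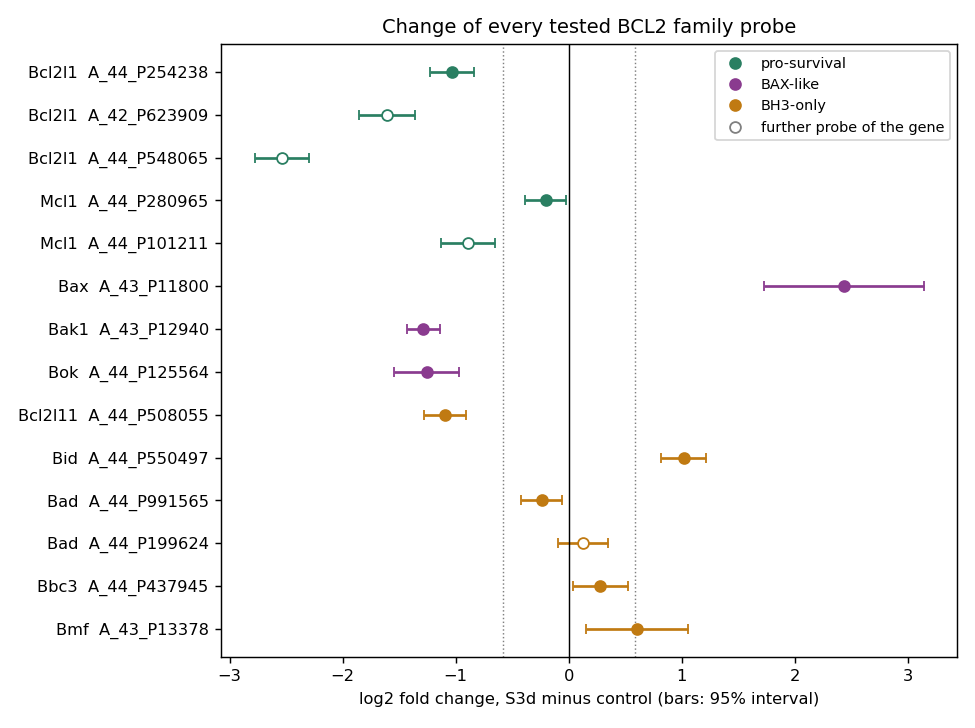
Log2 fold change, S3d minus control, with its 95% interval (x axis) for the 14 tested member probes (y axis), coloured by class. Dotted lines mark a fold of 1.5. Filled points are the brightest probe of a gene and open points its further probes; Bax lies farthest to the right and Bcl2l1 probe A_44_P548065 farthest to the left.

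The 5 BH3-only genes were split. Bcl2l11 was lower on the arrays labelled S3d, Bid was higher, and Bad, Bbc3 and Bmf lay close to the threshold. To show what lies at the start sites of the BH3-only genes that moved by at least 1.5-fold, the RefSeq promoter windows of Bcl2l11, Bid and Bmf are printed below, 5′ to 3′, from 250 bases before to 50 bases after the annotated start. Letters in capitals mark the motifs found on either strand: the GC box GGGCGG, the pentamer CCAAT bound by NF-Y, the forkhead site GTAAACA and GAANNTTC, an inverted pair of the units bound by heat shock factor. The TATA box TATAAA, the cAMP response half-site TGACGT and the E-box CACGTG were also searched, and no member window held them.

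Bcl2l11, GRCr8 chr3:135819792-135820091, plus strand: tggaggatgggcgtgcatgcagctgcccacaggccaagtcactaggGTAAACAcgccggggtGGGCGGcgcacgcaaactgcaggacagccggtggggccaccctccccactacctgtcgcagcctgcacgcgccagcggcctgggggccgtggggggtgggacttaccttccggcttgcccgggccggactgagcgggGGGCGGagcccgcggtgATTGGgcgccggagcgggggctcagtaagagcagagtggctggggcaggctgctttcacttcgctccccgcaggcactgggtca

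Bid, GRCr8 chr4:155808270-155808569, minus strand: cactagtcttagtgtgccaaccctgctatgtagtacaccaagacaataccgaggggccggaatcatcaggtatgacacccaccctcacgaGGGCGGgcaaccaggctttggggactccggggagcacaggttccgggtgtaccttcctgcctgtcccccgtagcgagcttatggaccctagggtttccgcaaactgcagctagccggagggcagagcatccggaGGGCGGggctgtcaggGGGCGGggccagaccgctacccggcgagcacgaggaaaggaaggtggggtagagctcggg

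Bmf, GRCr8 chr3:125974015-125974314, minus strand: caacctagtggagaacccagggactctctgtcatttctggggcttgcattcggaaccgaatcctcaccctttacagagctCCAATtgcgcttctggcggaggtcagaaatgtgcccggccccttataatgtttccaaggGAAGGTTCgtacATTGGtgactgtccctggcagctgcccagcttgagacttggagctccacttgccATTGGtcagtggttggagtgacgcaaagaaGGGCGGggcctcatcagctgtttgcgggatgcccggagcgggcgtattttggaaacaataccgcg

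The Bcl2l11 window held 1 GTAAACA, which 3.78% of the 33469 promoter windows of the table contained, along with 2 GGGCGG and 1 CCAAT. The Bid window held 3 GGGCGG and none of the others, and 33.1% of all windows contained that motif. The Bmf window held 3 CCAAT, 1 GGGCGG and 1 GAANNTTC, which 37.5%, 33.1% and 8.59% of all windows contained. The only other GTAAACA among the windows of the members was in that of Bad. Windows were given for 7 of the 10 members, and none was used here for Bax, Bok and Bbc3. A match is a run of letters and not evidence of binding.

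Bcl2l11 encodes BIM, which binds every pro-survival member and can activate BAX directly. Probe A_44_P508055 read -3.98, -4.08 and -3.98 on the control arrays and -5.04, -5.21 and -5.07 on the S3d arrays. The fall was 1.10 ± 0.08 on the log2 scale (adjusted p = 5.56e-05), with signals of 25.2 to 27.3 on the control arrays and 42.0 to 46.4 on the S3d arrays before scaling. The unscaled signal was therefore higher on the S3d arrays, by 0.75, which is less than the shift of the median of all tested probes. Bid, the link from death receptors and caspase 8 to the mitochondrion, read -1.21, -1.13 and -1.25 on the control arrays and -0.10, -0.13 and -0.31 on the S3d arrays for probe A_44_P550497. The groups lay apart, and the rise was 1.02 ± 0.08 (adjusted p = 0.0001).

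Bad is switched off by phosphorylation through AKT and binds BCL-XL. Its brighter probe, A_44_P991565, read 1.04, 1.21 and 1.21 on the control arrays and 0.88, 0.95 and 0.91 on the S3d arrays, a change of -0.24 ± 0.07 (adjusted p = 0.0258). Its other probe, A_44_P199624, overlapped between the groups, with 0.13 ± 0.09 (adjusted p = 0.246) and a 95% interval from -0.09 to 0.35. The mean of both probes was -0.057 (adjusted p = 0.544). Bbc3 encodes PUMA, which binds all pro-survival members. Probe A_44_P437945 read 0.76, 0.91 and 1.10 on the control arrays and 1.16, 1.20 and 1.26 on the S3d arrays, a change of 0.28 ± 0.10 (adjusted p = 0.0414). The change of Bbc3 was 0.095 with each array centred on its median (adjusted p = 0.397) and 0.32 after quantile normalization (adjusted p = 0.031). Bad and Bbc3 each passed in 1 of the 6 fits that left out 1 array.

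Bmf, which is tied to the cytoskeleton until it is released, varied more between the S3d arrays than the other members did. Probe A_43_P13378 read -4.01, -4.03 and -3.81 on the control arrays and -2.95, -3.61 and -3.49 on the S3d arrays. The change was 0.60 ± 0.18 (adjusted p = 0.0253), with a 95% interval from 0.15 to 1.06. The first S3d array lay highest, and without it the change was 0.40. After quantile normalization the change was 0.30 (adjusted p = 0.227), and after normexp background correction it was -1.16 (adjusted p = 0.198).

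By class, the median change of the brightest probes was -0.62 for the 2 pro-survival genes, -1.26 for the 3 BAX-like genes and 0.28 for the 5 BH3-only genes. The range within the BAX-like class, from -1.28 to 2.44, and within the BH3-only class, from -1.10 to 1.02, was wider than the distance between the class medians of the pro-survival and BH3-only genes. Of the 8 genes that promote death, 4 were higher and 4 lower.

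**Figure D3:**
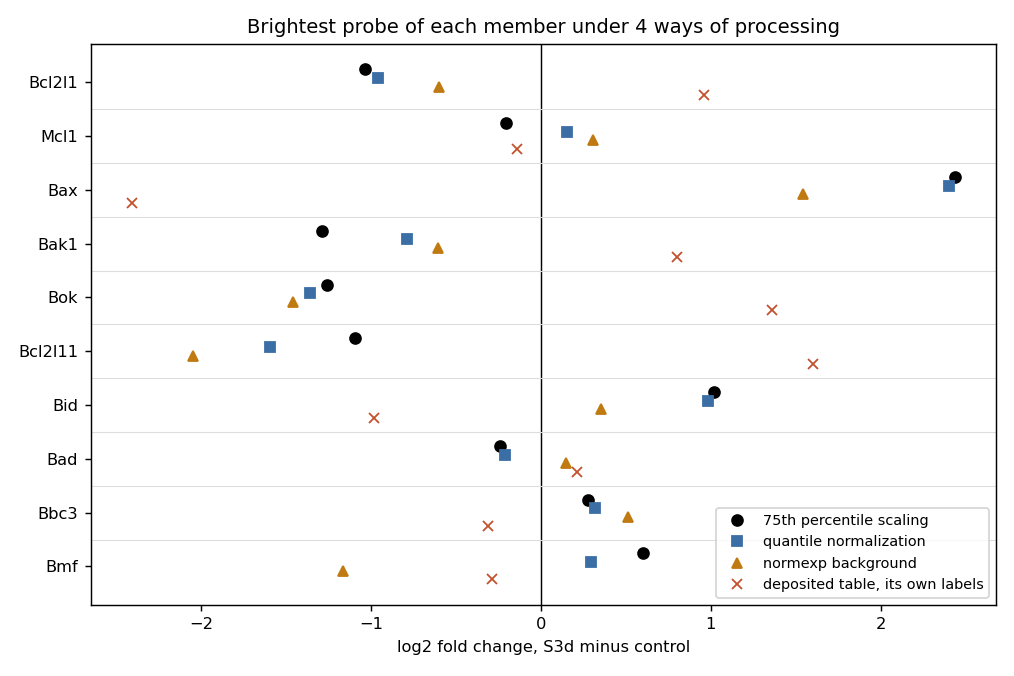
Log2 fold change, S3d minus control (x axis), of the brightest probe of each member (y axis) under 4 ways of processing. The crosses of the deposited table, taken by its own labels, lie on the other side of 0 from the scanner files for every member except Mcl1, and the normexp triangles of Mcl1, Bad and Bmf lie on the other side of 0 from the black points.

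The number of members called depended on the signal used and its background correction, which were changed together. After normexp correction of the median spot and local background signals, 1 of 10 members passed by its brightest probe, Bok, and 5.59% of all tested probes did. Of the 14 tested member probes 3 passed, with Bcl2l1 probes A_42_P623909 at -1.76 (adjusted p = 0.0293) and A_44_P548065 at -2.37 (adjusted p = 0.0176) beside Bok. Bax remained higher by 1.54 (adjusted p = 0.057). In the deposited table by its own labels, where 70.1% of all probes passed, 8 of 10 members did, and 9 of the 10 had the opposite sign to the scanner files. Bax was at -2.41 (adjusted p = 0.000528), Bid at -0.98 (adjusted p = 0.000153) and Bcl2l11 at 1.60 (adjusted p = 3.89e-05) there.

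To ask whether death and survival members shifted against each other on the same array, 6 ratios of a death member to a survival member known to bind it were compared. A factor common to all probes of an array drops out of such a ratio, but a shift that depends on brightness does not. Bcl2l11 lay in a bin of brightness with a median change of 0.39 and the brighter Mcl1 probe in one with -0.49. Only the change of a ratio is read, not its level. With 3 arrays against 3, the smallest p of a two-sided exact permutation test is 0.1, so none of these comparisons could pass 0.05. After Benjamini-Hochberg adjustment over the 6, the smallest was 0.12. The log2 ratio of Bax over Bcl2l1 was -4.18, -3.08 and -4.08 on the control arrays and -0.38, -0.32 and -0.24 on the S3d arrays. It changed by 3.47, a fold of 11.1, without overlap (exact permutation p = 0.1).

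The ratios with Bak1 went the other way by the brightest probes, the only ones used for the ratios. Bak1 over Mcl1 was 1.85, 1.87 and 2.00 on the control arrays and 0.87, 0.78 and 0.83 on the S3d arrays, a change of -1.08 (exact permutation p = 0.1). Bak1 over Bcl2l1 changed by -0.25 (exact permutation p = 0.1), but by 0.17 after quantile normalization. Bak1 itself changed by -1.28 and the Bcl2l1 probes by -1.03, -1.61 and -2.54, so the direction of this ratio depends on the probe. The Mcl1 probes changed by -0.20 and, for the dimmer one, -0.89, so the size of Bak1 over Mcl1 depends on the probe as well.

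Of the ratios with BH3-only genes, Bcl2l11 over Mcl1 changed by -0.89 and Bbc3 over Mcl1 by 0.48, each without overlap (exact permutation p = 0.1 for both). The first was -1.74 after quantile normalization and -2.35 after normexp correction, and the second 0.17 and 0.20. Bcl2l11 over Bcl2l1 overlapped between the groups, with a change of -0.062 (exact permutation p = 0.5), but after quantile normalization and normexp correction it was -0.63 and -1.44. Bcl2l11 changed by -1.10 and the dimmer Bcl2l1 probes by -1.61 and -2.54, so this ratio also depends on the probe. The size of Bcl2l11 over Mcl1 does too, since the dimmer Mcl1 probe changed by -0.89.

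**Figure D4:**
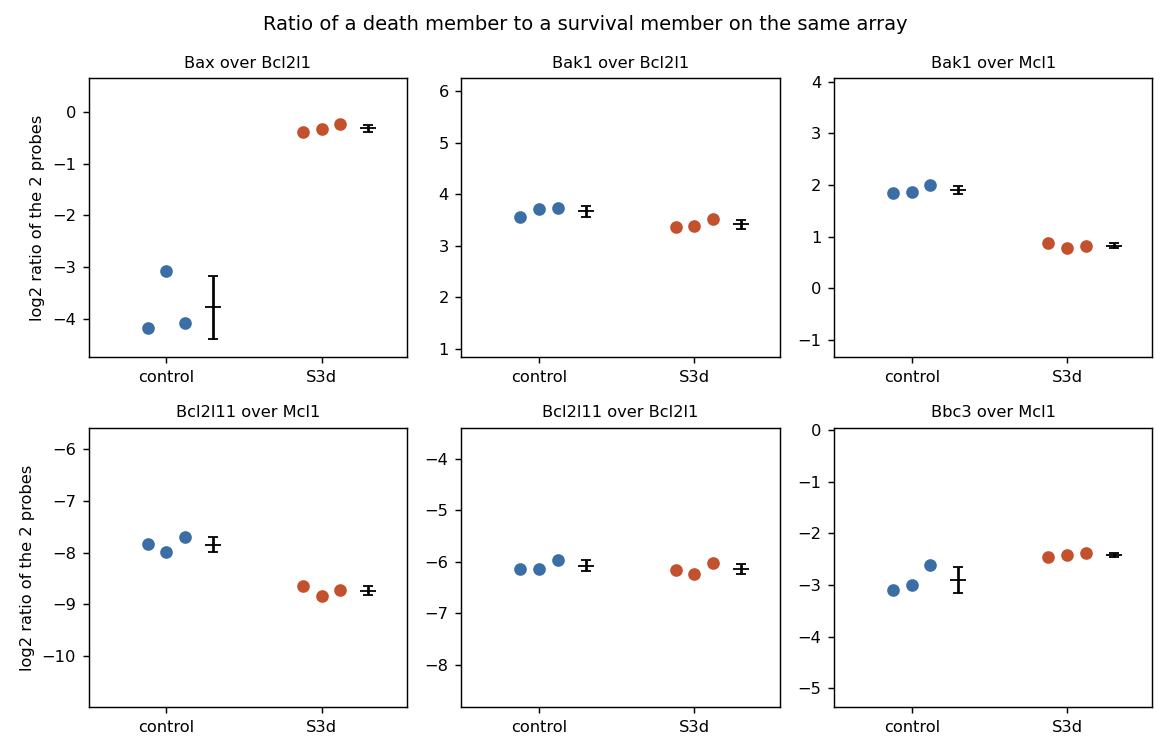
Log2 ratio of the signals of 2 member probes on the same array (y axis) for the 3 arrays labelled control and the 3 labelled S3d, with the mean ± SD. Each panel spans the same number of log2 units. Bax over Bcl2l1 moved up by 3.47, Bak1 over Mcl1 changed by -1.08 and the groups of Bcl2l11 over Bcl2l1 overlap.

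Other genes of the mitochondrial apoptosis pathway were taken as 3 lists of 47 genes, of which 41 could be tested. In all, 33 passed an adjusted p of 0.05, of which 10 rose and 23 fell in S3d. Among all tested probes 74.0% passed, 39.5% of all as higher and 34.5% as lower. With a fold of at least 1.5 as well, 19 of the 41 genes passed, against 52.5% of all tested probes. The median change of the 41 genes was -0.30. After quantile normalization 32 passed, 15 of them higher and 17 lower, so the split between the directions depends on the scaling. After normexp correction none passed in limma at an adjusted p of 0.05, and 16 had an unadjusted p under 0.05.

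Of 11 further BCL2-related genes, 4 rose and 5 fell, against 39.5% higher and 34.5% lower among all tested probes. After quantile normalization 3 were higher and 5 lower. The pro-survival gene Bcl2l2 (BCL-W) was higher by 0.79 (adjusted p = 0.000109), against the direction of Bcl2l1. Bcl2l10, which the study lists as an apoptosis facilitator, was higher by 1.19 (adjusted p = 0.000134). After normexp correction Bcl2l10 was at -0.31 (adjusted p = 0.668). The second probe of Bcl2l2, A_44_P112788, changed by 0.08 (adjusted p = 0.366). Bcl2l14 was higher by 1.30 (adjusted p = 0.000261). Bcl2l15 and the BH3-only gene Bik were lower, with -1.23 (adjusted p = 0.000101) and -1.01 (adjusted p = 0.000365). After quantile normalization they were at -0.52 (adjusted p = 0.00269) and -1.05 (adjusted p = 0.000389). Bnip3l, which marks mitochondria for autophagy, was at -0.59 (adjusted p = 0.00142), and at -0.17 after quantile normalization (adjusted p = 0.136). Bcl2 itself, the founding member, was at 0.38 (adjusted p = 0.0152) and at -0.19 after quantile normalization (adjusted p = 0.142), so no direction can be given for it.

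Of 17 genes that act downstream of the outer membrane, 4 rose and 10 fell, against 39.5% higher and 34.5% lower among all tested probes. After quantile normalization 7 were higher and 6 lower, so this split depends on the scaling. Casp6, an executioner caspase, was higher by 0.83 (adjusted p = 0.000485), and Birc2, an inhibitor of apoptosis, by 1.35 (adjusted p = 4.69e-05). Apaf1, the scaffold that activates caspase 9, was lower, with 1.68, 1.62 and 1.59 on the control arrays and 0.17, 0.17 and 0.41 on the S3d arrays. Its change was -1.38 (adjusted p = 4.46e-05). Birc5 (survivin) changed by -1.38 (adjusted p = 0.00137). Vdac1, the main channel of the outer membrane, had the largest fall of the pathway lists at -1.88 (adjusted p = 1.32e-05), and its 2 further probes were at -2.16 and -2.15.

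Of 13 upstream regulators, 2 rose and 8 fell, against 39.5% higher and 34.5% lower among all tested probes. After quantile normalization 5 were higher and 6 lower, so this split depends on the scaling too. Foxo3, a forkhead factor known to activate Bcl2l11 and Bbc3, was lower, with -2.93, -3.26 and -3.26 on the control arrays and -4.62, -4.52 and -5.02 on the S3d arrays. Its change was -1.57 (adjusted p = 0.000282), beside -1.10 for Bcl2l11 and 0.28 for Bbc3. Gsk3b, the kinase that marks MCL1 for destruction, and Atf4, a transcription factor of the integrated stress response, were lower by the labels of the scanner files, at -1.27 (adjusted p = 1.88e-05) and -1.26 (adjusted p = 3.73e-05), and higher by those of the deposited table, at 1.22 and 0.74. Ppp3ca, a catalytic subunit of calcineurin that dephosphorylates BAD, was higher by 0.59 (adjusted p = 0.000654).

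**Figure D5:**
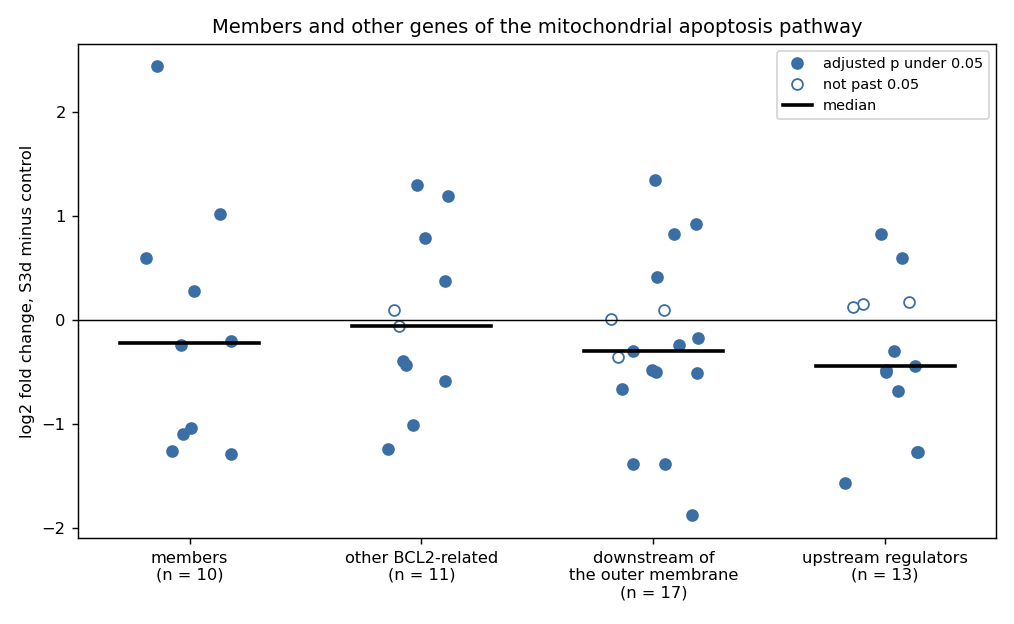
Log2 fold change, S3d minus control (y axis), of the brightest probe of each gene for the 10 members and the 3 pathway lists. Filled points passed an adjusted p of 0.05 and bars are medians. Each list holds genes on both sides of 0, and the medians lie between -0.44 for the upstream regulators and -0.05 for the other BCL2-related genes.

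Cell type markers differed between the groups as well. The summed linear signal of 9 villus enterocyte markers, in units of the array's 75th percentile, was 3444 to 3839.5 on the control arrays and 1475 to 1523 on the S3d arrays, with 7 of 9 lower and 1 higher, and all 9 were well above background on all 6 arrays. For 4 goblet and Paneth cell markers it was 903 to 928 against 286 to 309, with 3 lower. For 7 leukocyte markers it was 125 to 142 against 70.2 to 80.2, with 6 lower and 1 higher. For 5 crypt and proliferation markers it was 38.2 to 42.4 against 34.1 to 37.1, with 3 higher and 2 lower. For 5 smooth muscle markers the ranges overlapped. After quantile normalization 3 of the enterocyte markers were higher and 2 lower. The part of these shifts in the changes of the BCL2 members was not tested.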

How the data were processed

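Total RNA of the jejunum was measured on 1-colour Agilent arrays, 3 per group. The authors deposited 1 scanner file per array, made with Agilent Feature Extraction 10.7.3.1 per the file headers, and the intensity used is its processed signal, which is background-subtracted but not scaled between arrays. They also deposited 1 table of log2 values in which the 6 columns share 1 distribution. The program used for it is not given in the sources used here.

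Spots of control probes or flagged as outliers were dropped, repeated spots were averaged, and the log2 signal minus the 75th percentile of the array was tested with limma 3.58.1 in R 4.3.3, with Benjamini-Hochberg adjustment over the 31367 of 41012 probes that exceeded background clearly on all 3 arrays of at least 1 group. A fold of at least 1.5 was counted as well. Normexp correction, with an offset of 50, used the median spot and background intensity, since the deposited files used here hold no mean signal. Probes were named through RefSeq accessions with the table of the rat assembly GRCr8. That assembly differs from that of the array design, so only promoter windows carry coordinates. Exact permutation tests used scipy 1.17.1. The fit was first tested on simulated data.

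The 10 members, the pathway and marker lists and the tests were chosen with earlier results of these data known. Text names all members and, of each pathway list, the 3 largest rises and the 3 largest falls with a fold of at least 1.5 that were well above background on all 6 arrays, and Bcl2. A few genes that this rule names are not reported here. The array number, 3 per group, limits the precision, and the labels and methods differ in the number of rats per group. Alternatives were other scaling, background correction, filters, tests and single arrays left out.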

Additional observations from a re-analysis of the deposited data

How the results depend on the processing

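The number of all probes called was 21442 to 22813 with single arrays left out and 1752 after normexp correction, and with a fold of at least 1.5 it was 15984 to 16455, 1752 after normexp correction and 28900 without scaling, against 23202 and 16452. Member probes called numbered 13, 9 to 12 with single arrays left out and 3 after normexp correction. Members called by 1 probe per gene numbered 10, 6 to 9 with single arrays left out (6 without control replicate 2) and 1 after normexp correction. With a fold of at least 1.5 they numbered 7, 6 to 7 and 1. Pathway genes called numbered 33, 29 to 32 and, after normexp correction, 0. Other alternatives kept these counts within 1.5 times. Normexp correction ended the call of Bcl2l1 (-0.60), Bax (1.54), Bak1 (-0.61), Bcl2l11 (-2.04), Bid (0.35) and Bbc3 (0.51), and the cause was not tested. Same-numbered arrays did not deviate together (correlations 0.020, 0.022 and -0.049), so the numbers do not pair the samples. With the replicate number as a block, 22211 probes and 9 members were called, 12 member probes, 7 members and 16314 probes with a fold of at least 1.5, and 30 pathway genes. Slide as a block was not run because no slide holds both groups.

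The change of the ratio Bax over Bcl2l1 was 3.27 to 3.82 with single arrays left out, 2.14 after normexp correction and -3.37 in the deposited table by its own labels. Bak1 over Bcl2l1 was -0.31 to -0.22, with 0.17 after quantile normalization and -0.0042 after normexp correction. Bak1 over Mcl1 was -1.11 to -1.03, with -0.94 after quantile normalization, -0.91 after normexp correction and 0.94 in the table. Bcl2l11 over Mcl1 was -0.97 to -0.82, with -1.74, -2.35 and 1.74 in that order. Bcl2l11 over Bcl2l1 was -0.12 to -0.0016, with -0.63, -1.44 and 0.64. Bbc3 over Mcl1 was 0.39 to 0.63, with 0.17, 0.20 and -0.17.

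Signs turned as follows. The deposited table by its own labels gave 1.78 for Bcl2l1 A_42_P623909, 0.96 for Bcl2l1, 2.73 for Bcl2l1 A_44_P548065, 0.66 for Mcl1 A_44_P101211, -2.41 for Bax, 0.80 for Bak1, 1.36 for Bok, 1.60 for Bcl2l11, -0.98 for Bid, -0.087 for Bad A_44_P199624, 0.21 for Bad, -0.31 for Bbc3, -0.29 for Bmf, 0.50 for Bcl2l15, 1.05 for Bik, 0.20 for Bnip3l, -0.81 for Bcl2l2, -1.02 for Bcl2l10, -1.24 for Bcl2l14, 1.5 for Vdac1, 1.29 for Birc5, 1.33 for Apaf1, -1.28 for Casp6, -1.28 for Birc2, 1.96 for Foxo3, 1.22 for Gsk3b, 0.74 for Atf4 and -0.69 for Ppp3ca. Without scaling, values were 0.24 for Bcl2l1 A_42_P623909, 0.81 for Bcl2l1, 0.96 for Mcl1 A_44_P101211, 1.64 for Mcl1, 0.56 for Bak1, 0.59 for Bok, 0.75 for Bcl2l11, 1.61 for Bad, 0.61 for Bcl2l15, 0.84 for Bik, 1.26 for Bnip3l, 0.47 for Birc5, 0.47 for Apaf1, 0.28 for Foxo3, 0.58 for Gsk3b and 0.58 for Atf4. Quantile normalization gave 0.15 for Mcl1 and -0.19 for Bcl2. Normexp correction gave 0.31 for Mcl1, -0.21 for Bad A_44_P199624, 0.15 for Bad, -1.16 for Bmf, 0.077 for Bnip3l, -0.31 for Bcl2l10 and -1.80 for Bcl2. Centring on the median gave -0.059 for Bad A_44_P199624. The cause was not tested.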
